A study of Mus musculus with 16 samples.

Results

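The genes described here are 43 members of the NRF2 and glutathione system, measured in mouse liver among 55416 listed genes. They were taken from a list of gene names that was drawn up with earlier results of these data known. It comprises the NRF2 regulators and targets with the glutathione and thioredoxin enzymes, the glutathione S-transferases, the exporters of conjugates and the pentose phosphate enzymes. All 43 were matched to a gene identifier, and all 43 were among the 14770 genes with enough counts to be tested. The 16 libraries came from livers of wild-type C57BL/6J mice whose sex is not given in the sources used here. At 8 weeks of age each mouse had an adenovirus injected into the tail vein, either Ad-FAT10, which makes the liver overexpress FAT10, or the control virus Ad-CTRL, both at the same number of genome copies. After 4 days each mouse was gavaged with 1 mpk of pemafibrate (Pema), an agonist of the nuclear receptor PPARα, or with the vehicle CMC. Gavage was 18 h and 5 h before the liver was taken, with fasting for the last 5 h. The 4 groups of 4 libraries are Ad-FAT10 Pema, Ad-FAT10 CMC, Ad-CTRL Pema and Ad-CTRL CMC. Libraries are numbered within a group and are spoken of here as livers, although no label says that each is a separate animal, so p-values measure the spread between these libraries. All mice thus carried an adenovirus. No label gives the vector load, so in each comparison of the adenoviruses a difference in load, or in the reaction to a virus, cannot be told apart from the effect of FAT10.

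NRF2, encoded by Nfe2l2, is a transcription factor that KEAP1 hands to the proteasome in resting cells. When electrophiles or oxidants modify KEAP1, NRF2 escapes and, with a small MAF partner, binds antioxidant response elements in front of genes for quinone reduction, thioredoxin recycling, glutathione synthesis, glutathione conjugation and NADPH supply. Glutathione, the main thiol of the hepatocyte, is made from glutamate, cysteine and glycine, is coupled to electrophiles by the glutathione S-transferases, and the conjugates leave the cell through ABCC transporters. FAT10, encoded by Ubd, is a ubiquitin-like protein that also sends its targets to the proteasome.

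Library totals ran from 18663498 to 28898229 counts, and levels are given as CPM, the counts of a gene scaled to a common library size with TMM factors. Members held 1.26% to 2.10% of all counts. Ubd lay at 391 to 546 CPM in Ad-FAT10 Pema and 110.5 to 339 CPM in Ad-FAT10 CMC, against 14.2 to 47.8 CPM in Ad-CTRL Pema and 8.64 to 15.2 CPM in Ad-CTRL CMC livers, so every library labelled Ad-FAT10 lay above every Ad-CTRL library (log2 change 4.07 ± 0.38 under Pema and 4.41 ± 0.39 under CMC, edgeR adjusted p = 8.1e-07 and 4.8e-07). A pair of libraries stood apart, Ad-FAT10 Pema replicate 2 and Ad-FAT10 CMC replicate 4, each of which was the highest of its group in over 30 of the 43 members, and counts without them follow at the end of the results on the members. The summed level of 9 hepatocyte markers was 46150 to 67580 CPM in Ad-FAT10 Pema, 63470 to 79240 in Ad-FAT10 CMC, 72370 to 102200 in Ad-CTRL Pema and 89410 to 118000 in Ad-CTRL CMC. Of these markers 7 were lower with Ad-FAT10 under Pema and 5 under CMC, while Pema lowered 6 in Ad-FAT10 and 5 in Ad-CTRL livers. Of all genes tested, 20.5% were lower with Ad-FAT10 under Pema and 20.2% under CMC, and 21.2% and 22.5% were higher. Pema lowered 12.5% of all genes tested in Ad-FAT10 and 14.4% in Ad-CTRL livers. The 7 neutrophil markers summed to 16.2 to 23.0, 35.2 to 90.4, 6.19 to 9.21 and 7.76 to 15.4 CPM in the 4 groups in the same order, and 6 T and NK cell markers to 27.8 to 64.8, 34.0 to 48.0, 11.9 to 19.3 and 10.9 to 24.8 CPM. Sums of cholangiocyte markers (6 genes) were 26.0 to 64.0, 41.9 to 157, 27.4 to 36.9 and 36.4 to 44.2 CPM. Spp1 alone held 143.9 of the 157 CPM, in Ad-FAT10 CMC replicate 2. Of 5 cholangiocyte markers tested, 2 were higher and 0 lower with Ad-FAT10 under CMC, where 3 had a negative change, and 0 were called under Pema. Sums of macrophage markers (8 genes) were 272 to 553, 398 to 564, 254 to 439 and 338 to 493 CPM. Of these macrophage markers 3 were higher and 4 lower with Ad-FAT10 in each treatment. Cd68, Csf1r and Cd5l were higher, while Clec4f, Timd4, Vsig4 and Marco were lower, so genes of Kupffer cells did not move in 1 direction. Clec4f averaged 8.04 and 11.95 CPM in Ad-FAT10 Pema and CMC livers, against 73.3 and 88.0 CPM in Ad-CTRL Pema and CMC livers. Cd5l, also a Kupffer cell gene, averaged 211 and 263 CPM against 125 and 154 CPM in the same order. Endothelial markers (6 genes) summed to 99.5 to 159, 97.9 to 135, 148 to 237 and 146 to 203 CPM, stellate cell markers (6 genes) to 156 to 245, 149 to 212, 215 to 311 and 226 to 259 CPM, and B and plasma cell markers (4 genes) to 2.63 to 4.69, 2.52 to 3.44, 3.79 to 6.17 and 3.98 to 6.93 CPM. No marker was at 0 across a whole group. In whole liver RNA, fewer cells of a type and less RNA per cell cannot be told apart, and the part of these shifts in the results on the members was not tested.

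The antioxidant response element has the core TGACNNNGC, and it was looked for on both strands of the 300 bases from 250 before to 50 after each RefSeq gene start (mouse build GRCm38.p6, while the submitters' processing notes name GRCm39 for the counts). Of 37 members with such a window, 13 held the core (35.1%), against 14% of 27025 genes. The list was built around NRF2 targets, which such elements mark, so a higher share follows from the choice of genes and is no test. The 37 members also had 48 windows, against 32851 windows for the 27025 genes. The stretches below show it in capitals, with 20 bases on each side where the window allows, in the direction of the gene. The first set is of members that were higher with Ad-FAT10 in both treatments, the second of members that were lower in both, and the last is Nfe2l2 itself. These are examples and not all matches. The core was also in Srxn1 and Pgd, higher in both treatments, in Gstm7, lower in both, and at a second place in Ugdh. In the order shown, the core begins 92, 132, 57, 121, 56 and 240 bases before the start.
Txnrd1, chr10:82859094-82859142, plus strand: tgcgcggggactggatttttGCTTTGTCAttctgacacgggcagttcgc
Ugdh, chr5:65435946-65435994, minus strand: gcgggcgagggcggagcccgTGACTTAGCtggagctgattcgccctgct
G6pdx, chrX:74428909-74428957, minus strand: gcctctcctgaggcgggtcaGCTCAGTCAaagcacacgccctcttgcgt
Gsta3, chr1:21240444-21240492, plus strand: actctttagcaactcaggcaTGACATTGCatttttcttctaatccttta
Mgst1, chr6:138140451-138140499, plus strand: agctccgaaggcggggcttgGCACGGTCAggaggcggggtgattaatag
Nfe2l2, chr2:75704875-75704913, minus strand: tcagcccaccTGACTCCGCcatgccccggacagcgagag
Members with the core moved in both directions. Of the 13 with it, 6 were higher, 4 lower and 3 not called with Ad-FAT10 under Pema, and 6, 3 and 4 under CMC. Of the 24 members with a window but without the core, 11 were higher, 3 lower and 10 not called under Pema, and 12, 2 and 10 under CMC. A perfect direct repeat of the kind PPARα binds, AGGTCA given 2 times with 1 base between, looked for on both strands, was in the window of 0 of 37 members, against 0.0481% of all genes. A match is a description of the letters and not a shown binding site, and the absence of one speaks only of this window.

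With Ad-FAT10, compared with Ad-CTRL, 4 of 5 members of glutathione synthesis and recycling were higher in both treatments. So were 7 (Pema) and 6 (CMC) of 11 antioxidant and thioredoxin members. Of 4 pentose phosphate members, the 2 that produce NADPH were higher in both treatments. The theta transferases Gstt1 and Gstt2, the alpha transferase Gsta3 and the microsomal transferase Mgst1 were lower. Under Pema 21 of 43 members were higher and 8 lower, against 21.2% and 20.5% of all genes tested, and under CMC 21 were higher and 6 lower, against 22.5% and 20.2%. The members that were lower were thus not more frequent than lower genes in general in either treatment. The median log2 change of the members was 0.34 under Pema and 0.42 under CMC, where that of all genes tested was -0.02 and -0.01. In the same direction in both treatments, which share no libraries, 18 members were higher and 6 lower, against 2379 and 1987 of the 14770 genes, and 0 members moved in opposite directions. The 18 include Gpx2 and Slc7a11, which had enough counts to be tested only through the Ad-FAT10 libraries. By libraries, 19 members under Pema and 17 under CMC had all 4 Ad-FAT10 values above all 4 Ad-CTRL values (19.0% and 20.3% of all genes), and 6 in each had them all below (18.0% and 17.8%). In either direction, 36.9% of all genes under Pema and 38.2% under CMC had groups that did not overlap. When libraries were scaled by their totals alone, the median of all genes rose by 0.36 (log2) under Pema and 0.29 under CMC, and the members then divided 30 higher to 2 lower (93.8% higher) under Pema, against 72.4% with TMM. Under CMC they divided 30 to 5 (85.7%), against 77.8%. The 8 lower members under Pema were 4 without Ad-CTRL Pema replicate 1 or without Ad-FAT10 Pema replicate 3, and 5 without Ad-CTRL Pema replicate 2.

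**Figure D1:**
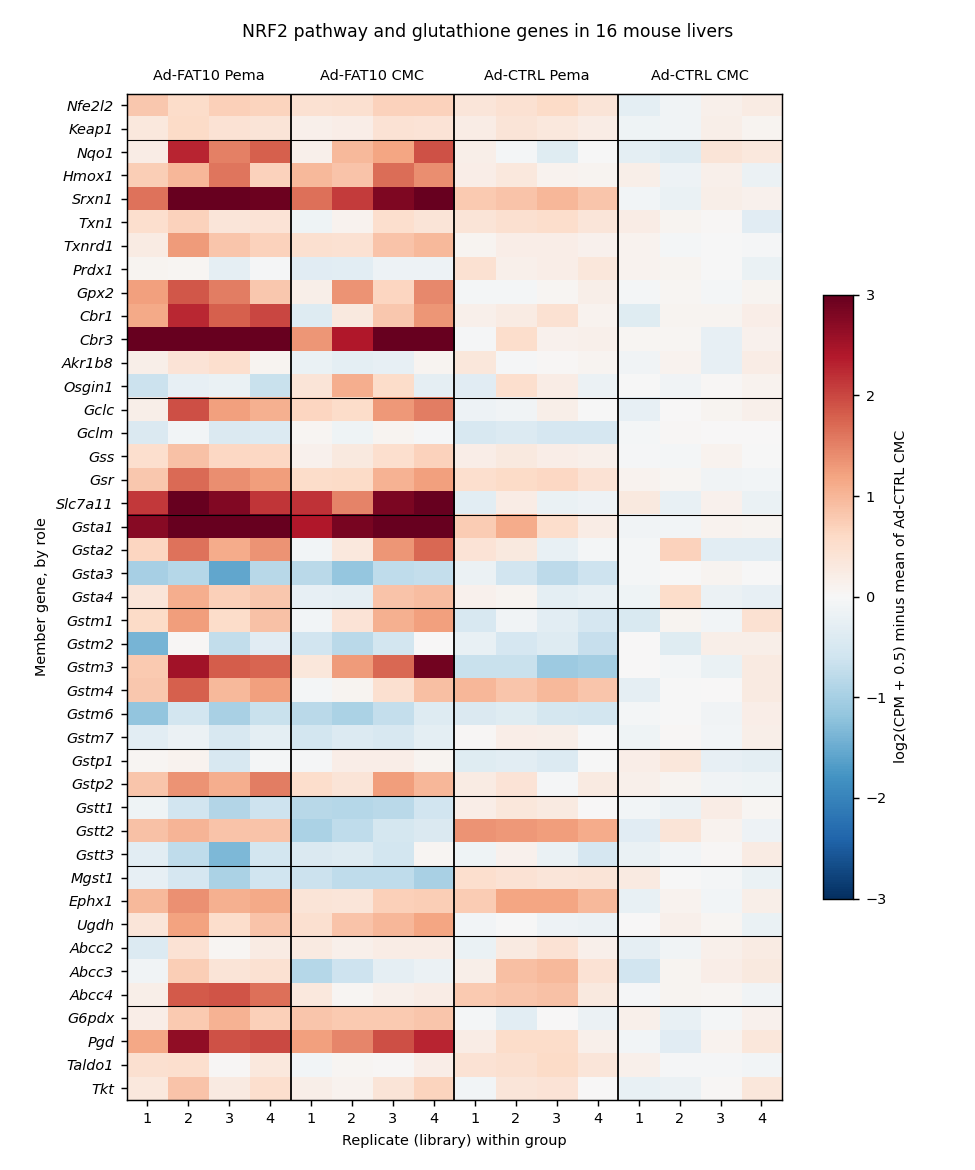
Level of each of the 43 members (rows, by role, regulators at the top) in each of the 16 livers (columns, by group and replicate), as log2(CPM + 0.5) minus the mean of the Ad-CTRL CMC livers, with colours ending at -3 and 3. Srxn1, Cbr3, Slc7a11 and Gsta1 lie at 1.33 or more in every Ad-FAT10 column, and Gstt2 lies between 1.12 and 1.34 in the Ad-CTRL Pema columns.

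Among the regulators, Nfe2l2 (ENSMUSG00000015839) had 123, 102.5, 115 and 112 CPM in Ad-FAT10 Pema and 96.3, 97.8, 114 and 115 CPM in Ad-FAT10 CMC livers. In Ad-CTRL livers it had 90.6, 96.0, 105 and 92.04 CPM with Pema and 57.2, 65.5, 78.3 and 83.5 CPM with CMC. The Ad-CTRL CMC livers lay below all others, and the other 3 groups lay close together. Nfe2l2 rose with Ad-FAT10 under CMC by 0.57 ± 0.11 on the log2 scale (SE, edgeR adjusted p = 0.00052), while under Pema the change was 0.24 (adjusted p = 0.084). Keap1, the adaptor that targets NRF2 for degradation, had 58.3, 69.4, 63.4 and 60.9 CPM in Ad-FAT10 Pema and 52.1, 53.0, 63.1 and 61.8 CPM in Ad-FAT10 CMC livers. Its Ad-CTRL values were 54.4, 61.2, 58.3 and 54.3 CPM with Pema and 42.1, 42.96, 52.6 and 49.0 CPM with CMC, so the groups overlapped in both adenovirus comparisons. Keap1 rose under CMC by 0.30 ± 0.09 (adjusted p = 0.0147), a call lost without Ad-CTRL CMC replicate 1 or 2 or Ad-FAT10 CMC replicate 3 (highest adjusted p 0.0539), and its change under Pema was 0.14 (adjusted p = 0.227).

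In the antioxidant and thioredoxin group, 7 of 11 members rose under Pema and 6 under CMC. Srxn1, the sulfiredoxin that repairs overoxidised peroxiredoxins, had 145, 727, 529 and 357 CPM in Ad-FAT10 Pema and 147, 201, 326 and 402 CPM in Ad-FAT10 CMC livers. Levels in Ad-CTRL livers were 80.7, 84.5, 93.6 and 82.9 CPM with Pema and 43.7, 40.2, 52.2 and 50.4 CPM with CMC. Every Ad-FAT10 liver lay above every Ad-CTRL liver. The log2 change was 2.36 ± 0.36 under Pema (adjusted p = 7.15e-05) and 2.53 ± 0.36 under CMC (adjusted p = 3.82e-05).

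Cbr3, a carbonyl reductase, had the largest fitted change of the members under Pema. It stood at 13.7, 92.7, 43.9 and 45.2 CPM in Ad-FAT10 Pema and 2.80, 6.42, 13.9 and 25.2 CPM in Ad-FAT10 CMC livers, against 0.778, 1.39, 0.948 and 0.969 CPM in Ad-CTRL Pema and 0.880, 0.878, 0.601 and 0.926 CPM in Ad-CTRL CMC livers. All Ad-FAT10 values lay above all Ad-CTRL values, and the Ad-FAT10 values were themselves widely spread. Its log2 change was 5.58 ± 0.66 under Pema (adjusted p = 7.77e-06) and 3.90 ± 0.68 under CMC (adjusted p = 0.000245). Without Ad-FAT10 CMC replicate 4 the CMC change was 3.25 (adjusted p = 0.000891). The neighbouring carbonyl reductase gene Cbr1 had 103, 225, 162 and 189 CPM in Ad-FAT10 Pema and 35.5, 57.0, 81.9 and 118 CPM in Ad-FAT10 CMC livers. In Ad-CTRL livers it had 51.9, 54.8, 63.9 and 49.9 CPM with Pema and 35.9, 48.9, 49.3 and 53.7 CPM with CMC. The groups were apart under Pema, where Cbr1 rose by 1.62 ± 0.28 (adjusted p = 0.000191), and overlapped under CMC (0.64, adjusted p = 0.0678). The copies Cbr1 and Cbr3 are similar in sequence, and how shared reads were counted is not given in the sources used here.

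Nqo1, the NAD(P)H quinone reductase that is a standard readout of NRF2, had 7.87, 34.6, 19.9 and 24.3 CPM in Ad-FAT10 Pema and 7.48, 13.7, 15.9 and 26.6 CPM in Ad-FAT10 CMC livers. Its Ad-CTRL levels were 7.62, 6.36, 5.09 and 6.65 CPM with Pema and 5.34, 4.94, 8.83 and 8.39 CPM with CMC. Replicate 1 of each Ad-FAT10 group lay near the Ad-CTRL livers, and the groups overlapped under CMC. Nqo1 rose by 1.75 ± 0.38 under Pema (adjusted p = 0.00131) and by 1.21 ± 0.38 under CMC (adjusted p = 0.0147), the second of which was lost without Ad-FAT10 CMC replicate 4 (0.85, adjusted p = 0.0779). Hmox1, which opens the heme ring, had 62.5, 75.0, 115 and 60.0 CPM in Ad-FAT10 Pema and 73.0, 67.7, 119 and 97.7 CPM in Ad-FAT10 CMC livers. Against these stood 42.9, 46.1, 40.1 and 39.1 CPM in Ad-CTRL Pema and 41.9, 33.2, 41.3 and 32.8 CPM in Ad-CTRL CMC livers, all below the Ad-FAT10 values. Hmox1 rose by 0.89 ± 0.19 under Pema (adjusted p = 0.00127) and 1.26 ± 0.19 under CMC (adjusted p = 7.19e-05).

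Gpx2, a glutathione peroxidase best known from the gut epithelium, was nearly silent in Ad-CTRL livers, with 0, 0, 1 and 2 counts with Pema and 0, 1, 0 and 1 counts with CMC. In Ad-FAT10 livers it had 19, 37, 34 and 13 counts with Pema and 2, 22, 9 and 27 counts with CMC. It was called higher in both treatments (adjusted p = 0.000316 and 0.00143), and no fold is given because the Ad-CTRL libraries hold so few counts. Gpx2 had enough counts to be tested only through the Ad-FAT10 libraries, so its calls are weak support for a rise. Txnrd1, the cytosolic thioredoxin reductase, averaged 355 ± 102 CPM in Ad-FAT10 Pema and 332 ± 59.3 in Ad-FAT10 CMC, against 226 ± 9.24 in Ad-CTRL Pema and 202 ± 9.91 CPM in Ad-CTRL CMC livers (SD, n = 4 each). It rose by 0.65 under Pema (adjusted p = 0.0035) and 0.72 under CMC (adjusted p = 0.00185), with no overlap between groups. Its substrate Txn1, thioredoxin, did not pass the test with either treatment (0.06 and 0.23). Prdx1, an abundant peroxiredoxin, had 1121 ± 117 CPM in Ad-FAT10 Pema and 1410 ± 136 CPM in Ad-CTRL Pema livers and fell by 0.33 under Pema (adjusted p = 0.0241), a sign that turned to 0.02 when libraries were scaled by their totals alone. That call was also lost without Ad-CTRL Pema replicate 1 or 4 or Ad-FAT10 Pema replicate 3 (highest adjusted p 0.0834), and under CMC the change was -0.24 (adjusted p = 0.0905). Akr1b8, an aldo-keto reductase, and Osgin1, an oxidative stress-induced growth inhibitor, did not pass in either adenovirus comparison.

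In glutathione synthesis and recycling, 4 of 5 members rose in both treatments, and Gclm was the exception. Gclc, the catalytic subunit of the rate-limiting glutamate-cysteine ligase, averaged 492 ± 234 CPM in Ad-FAT10 Pema and 441 ± 146 in Ad-FAT10 CMC, against 207 ± 22.8 in Ad-CTRL Pema and 211 ± 23.5 CPM in Ad-CTRL CMC livers (SD, n = 4 each). It rose by 1.25 ± 0.27 under Pema (adjusted p = 0.00135) and 1.06 ± 0.27 under CMC (adjusted p = 0.0043). Gclm, the modifier subunit of the same ligase, had 172, 222, 173 and 175 CPM in Ad-FAT10 Pema and 245, 213, 249 and 230 CPM in Ad-FAT10 CMC livers. Its Ad-CTRL levels were 167, 176, 166 and 164 CPM with Pema and 225, 241, 234 and 236 CPM with CMC. Gclm thus lay mostly by treatment and not by adenovirus. The treatments were apart in Ad-CTRL livers, while in Ad-FAT10 livers Pema replicate 2 (222 CPM) lay above CMC replicate 2 (213 CPM). The Ad-FAT10 changes of Gclm were 0.14 (95% interval -0.05 to 0.33) under Pema and 0.00 (95% interval -0.19 to 0.19) under CMC.

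Slc7a11, the cystine importer xCT that supplies cysteine for glutathione, was low in all livers. It had 2.78, 6.26, 4.63 and 2.83 CPM in Ad-FAT10 Pema and 2.89, 1.61, 4.77 and 6.32 CPM in Ad-FAT10 CMC livers, against 0.104, 0.374, 0.150 and 0.176 CPM in Ad-CTRL Pema and 0.411, 0.139, 0.324 and 0.154 CPM in Ad-CTRL CMC livers. The Ad-CTRL values stand for 2 to 7 counts a library and the Ad-FAT10 values for 42 to 184, with no overlap. Slc7a11 had enough counts to be tested only through the Ad-FAT10 libraries. Its log2 change was 4.34 ± 0.51 under Pema (adjusted p = 7.6e-06) and 3.93 ± 0.49 under CMC (adjusted p = 1.09e-05). Gsr, the reductase that regenerates glutathione with NADPH, had 122, 225, 181 and 165 CPM in Ad-FAT10 Pema and 100.5, 103, 143 and 161 CPM in Ad-FAT10 CMC livers. Ad-CTRL livers stood at 98.1, 103, 106 and 93.3 CPM with Pema and 74.0, 72.1, 64.4 and 65.3 CPM with CMC. Within each treatment all Ad-FAT10 livers were above the Ad-CTRL livers, and Gsr rose by 0.79 ± 0.16 under Pema (adjusted p = 0.00087) and 0.88 ± 0.16 under CMC (adjusted p = 0.000374). Gss, glutathione synthetase, rose by 0.46 and 0.42 (adjusted p = 0.00244 and 0.00479).

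**Figure D2:**
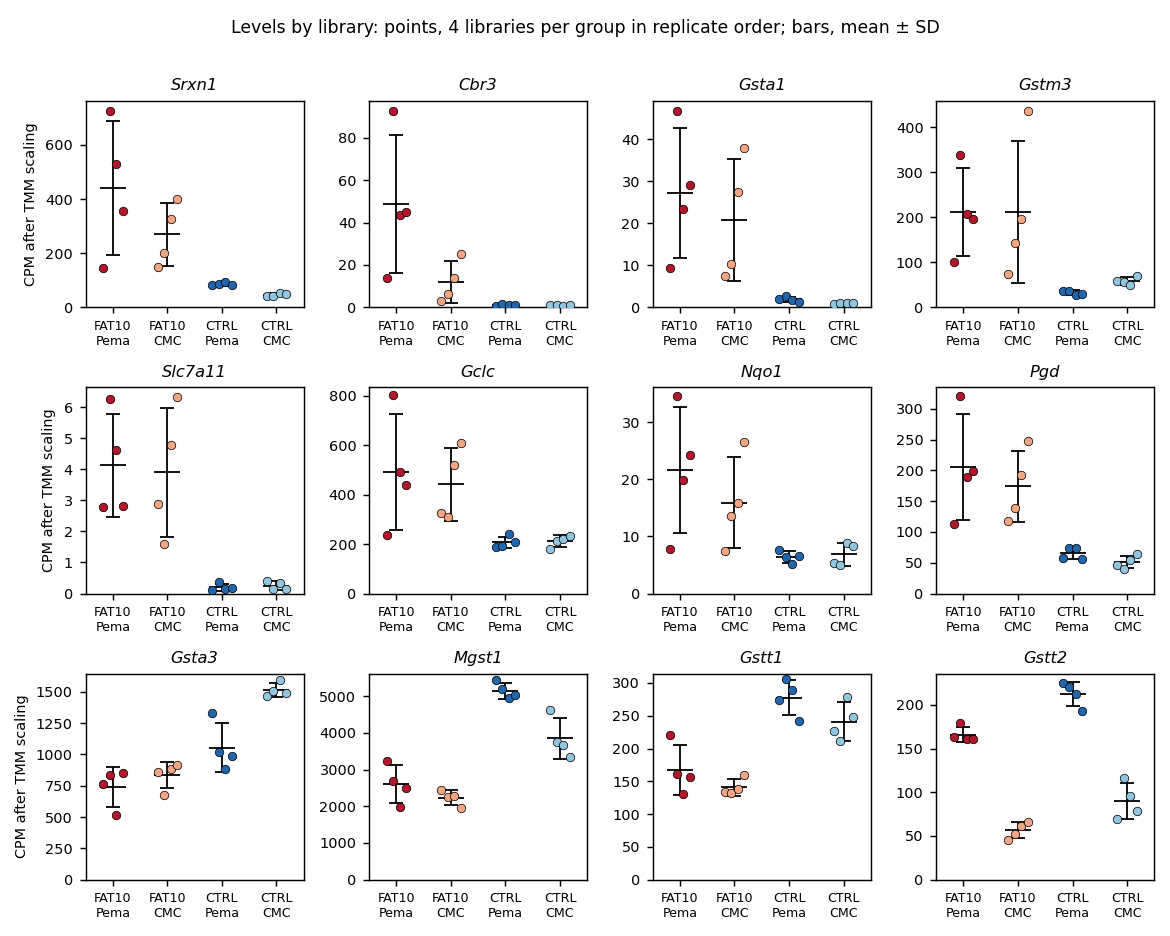
CPM after TMM scaling of 12 members in the 4 groups, with a linear axis from 0 for each gene, 1 point per library in replicate order and bars for mean ± SD (n = 4). Srxn1, Cbr3, Gsta1, Gstm3 and Slc7a11 lie higher in both Ad-FAT10 groups, Gsta3 and Mgst1 lie lower in them, and Gstt2 lies higher in both Pema groups.

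The 4 alpha transferases divided. Gsta1 had 9.42, 46.8, 23.4 and 29.1 CPM in Ad-FAT10 Pema and 7.43, 10.3, 27.5 and 38.01 CPM in Ad-FAT10 CMC livers, against 2.02, 2.73, 1.65 and 1.23 CPM in Ad-CTRL Pema and 0.880, 0.924, 1.11 and 1.08 CPM in Ad-CTRL CMC livers. The lowest Ad-FAT10 liver was above the highest Ad-CTRL liver, and the log2 change was 3.84 ± 0.53 under Pema (adjusted p = 2.83e-05) and 4.38 ± 0.57 under CMC (adjusted p = 1.67e-05). Gsta2, a close copy of Gsta1 with which reads may be shared, averaged 38.3 ± 10.6 CPM in Ad-FAT10 Pema and 32.8 ± 18.4 in Ad-FAT10 CMC, against 17.7 ± 3.67 in Ad-CTRL Pema and 16.9 ± 6.44 CPM in Ad-CTRL CMC livers. It rose by 1.12 under Pema (adjusted p = 0.0116) and 0.96 under CMC (adjusted p = 0.0266), the second of which was lost in 5 of 16 fits without 1 library and was 0.60 (adjusted p = 0.144) without Ad-FAT10 CMC replicate 4. Gsta3, the alpha transferase with the highest level per kilobase of exon in all 4 groups, went the other way. It had 762, 836, 512 and 851 CPM in Ad-FAT10 Pema and 863, 678, 886 and 915 CPM in Ad-FAT10 CMC livers. In Ad-CTRL livers it had 1332, 1017, 881 and 986 CPM with Pema and 1462, 1509, 1590 and 1491 CPM with CMC. The Ad-FAT10 livers lay below the Ad-CTRL livers in both treatments, and Gsta3 fell by 0.51 ± 0.16 under Pema (adjusted p = 0.0144) and by 0.86 ± 0.16 under CMC (adjusted p = 0.000356). The Pema call was lost without Ad-CTRL Pema replicate 1 (-0.38, adjusted p = 0.0607) and with scaling by library totals alone. Gsta4, which conjugates products of lipid peroxidation, rose by 0.84 under Pema (adjusted p = 0.0136) and did not pass under CMC (0.39, adjusted p = 0.224).

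Of the 6 mu transferases, Gstm1 and Gstm3 rose and Gstm6 and Gstm7 fell in both treatments, the fall of Gstm6 under Pema turning to 0.01 with scaling by library totals alone. Gstm3 had 101, 339, 208 and 197 CPM in Ad-FAT10 Pema and 74.4, 142.5, 195 and 437 CPM in Ad-FAT10 CMC livers. Against these it had 36.8, 36.6, 27.2 and 28.6 CPM in Ad-CTRL Pema and 58.5, 56.0, 50.5 and 70.6 CPM in Ad-CTRL CMC livers. No Ad-FAT10 liver reached down to an Ad-CTRL liver. The log2 change was 2.71 ± 0.41 under Pema (adjusted p = 7.16e-05) and 1.85 ± 0.40 under CMC (adjusted p = 0.00127), or 1.22 (adjusted p = 0.00597) without Ad-FAT10 CMC replicate 4. Gstm1, the most abundant mu transferase per kilobase of exon, averaged 2344 ± 555 CPM in Ad-FAT10 Pema and 2193 ± 849.5 in Ad-FAT10 CMC, against 1036 ± 140 in Ad-CTRL Pema and 1346 ± 347 CPM in Ad-CTRL CMC livers. It rose by 1.18 under Pema (adjusted p = 0.00113) and 0.70 under CMC (adjusted p = 0.0283), the second of which was lost in 5 of 16 fits without 1 library (highest adjusted p 0.12). Gstm6 fell by 0.35 under Pema (adjusted p = 0.0414, lost in 7 of 16 such fits) and 0.70 under CMC (adjusted p = 0.000475), and Gstm7 by 0.42 and 0.44 (adjusted p = 0.00125 and 0.000938). Gstm2 and Gstm4 did not pass. The mu genes are close copies, so reads may have been divided among them.

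Gstp1, one of the most abundant transferases, had 2478 ± 428 CPM in Ad-FAT10 Pema and 2831 ± 223 in Ad-FAT10 CMC, against 2180 ± 285 in Ad-CTRL Pema and 2658 ± 573 CPM in Ad-CTRL CMC livers, and did not pass (0.18, 95% interval -0.15 to 0.52, and 0.09, -0.25 to 0.43). Its near-identical copy Gstp2, at 8.28 ± 1.80 and 6.20 ± 1.86 CPM in the 2 Ad-FAT10 groups and 3.92 ± 0.539 and 3.27 ± 0.367 CPM in the 2 Ad-CTRL groups (Pema, then CMC), rose by 1.08 and 0.93 (adjusted p = 0.000376 and 0.00158). Its reads cannot be told apart with certainty from those of Gstp1. The 3 theta transferases had negative changes in both treatments, except that Gstt2 under Pema turned to 0.005 with scaling by library totals alone. Gstt1 averaged 167 ± 37.9 CPM in Ad-FAT10 Pema and 141 ± 12.9 in Ad-FAT10 CMC, against 278 ± 27.1 in Ad-CTRL Pema and 241 ± 29.0 CPM in Ad-CTRL CMC livers. It fell by 0.73 and 0.77 (adjusted p = 0.000401 and 0.000253), without overlap. Gstt2 had 163, 179, 161 and 161 CPM in Ad-FAT10 Pema and 45.8, 52.0, 61.5 and 65.9 CPM in Ad-FAT10 CMC livers. Its values in Ad-CTRL livers were 225, 220.3, 212 and 193 CPM with Pema and 69.7, 116, 96.1 and 79.1 CPM with CMC. Within each treatment its Ad-FAT10 livers lay below, and between treatments its Pema livers lay far above. Gstt2 fell by 0.36 under Pema (adjusted p = 0.0417, lost in 8 of 16 fits without 1 library) and by 0.68 under CMC (adjusted p = 0.000761). Gstt3 fell by 0.57 under Pema (adjusted p = 0.0271, lost in 4 of 16 such fits) and changed by -0.32 under CMC (adjusted p = 0.194).

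Mgst1, the microsomal transferase, averaged 2607 ± 515 CPM in Ad-FAT10 Pema and 2236 ± 203 in Ad-FAT10 CMC, against 5150 ± 217 in Ad-CTRL Pema and 3849 ± 553 CPM in Ad-CTRL CMC livers (SD, n = 4 each). It had the largest fall of the members under Pema, by 0.98 ± 0.14 (adjusted p = 5.68e-05), and fell under CMC by 0.78 ± 0.14 (adjusted p = 0.00037), without overlap. Per kilobase of exon it had 1295 and 1111 CPM in Ad-FAT10 Pema and CMC livers and 2558 and 1912 CPM in Ad-CTRL Pema and CMC livers. On the same scale Gstm1 had 1591, 1489, 703 and 914 CPM and Gstp1 1601, 1829, 1408 and 1717 CPM in the same order of groups. Mgst1 was thus the highest of the 43 per kilobase in both Ad-CTRL groups and the third highest in both Ad-FAT10 groups. Ugdh, which makes the donor for glucuronidation, rose with Ad-FAT10 to 284 ± 75.5 CPM in Ad-FAT10 Pema and 310 ± 60.3 in Ad-FAT10 CMC, against 154.5 ± 8.27 in Ad-CTRL Pema and 167 ± 16.5 CPM in Ad-CTRL CMC livers (0.88 and 0.90, adjusted p = 0.000373 and 0.000314). Ephx1, the microsomal epoxide hydrolase, had 812, 1064, 861 and 915 CPM in Ad-FAT10 Pema and 538, 533, 679.5 and 686 CPM in Ad-FAT10 CMC livers. Its Ad-CTRL levels were 702, 936, 937 and 813 CPM with Pema and 355, 446, 392 and 469.5 CPM with CMC. Ephx1 was higher with Ad-FAT10 under CMC (0.55 ± 0.13, adjusted p = 0.0031) and overlapped under Pema (0.11, adjusted p = 0.537).

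Among the exporters, Abcc4 of the sinusoidal membrane passed under Pema alone. It had 3.51, 12.3, 12.8 and 10.7 CPM in Ad-FAT10 Pema and 3.94, 3.21, 3.47 and 3.64 CPM in Ad-FAT10 CMC livers, against 5.60, 5.82, 6.09 and 3.88 CPM in Ad-CTRL Pema and 2.99, 3.28, 3.19 and 2.83 CPM in Ad-CTRL CMC livers. Replicate 1 of Ad-FAT10 Pema lay below the Ad-CTRL Pema livers and the other 3 above them. The log2 change was 0.89 ± 0.27 under Pema (adjusted p = 0.0128) and 0.21 under CMC (adjusted p = 0.581). Abcc3, a second sinusoidal pump, and Abcc2, the canalicular pump for glutathione conjugates, did not pass in either adenovirus comparison. Of the 4 members of the pentose phosphate pathway, the NADPH-producing Pgd and G6pdx were higher in both treatments and the other 2 were not called. Pgd, 6-phosphogluconate dehydrogenase, had 113, 320.5, 190 and 199 CPM in Ad-FAT10 Pema and 118.5, 139, 192 and 247.5 CPM in Ad-FAT10 CMC livers. In Ad-CTRL livers it had 58.2, 73.2, 73.1 and 56.2 CPM with Pema and 47.0, 39.5, 53.7 and 63.5 CPM with CMC. All 8 Ad-FAT10 livers lay above all 8 Ad-CTRL livers, and Pgd rose by 1.66 ± 0.26 (adjusted p = 9.92e-05) and 1.78 ± 0.26 (adjusted p = 5.19e-05). G6pdx, the entry enzyme of the pathway, rose by 0.90 and 0.84 (adjusted p = 0.000153 and 0.00025), and Taldo1 and Tkt, of the branch that returns sugars to glycolysis, did not pass. Outside the 43, and named after their values were seen, H6pd, the glucose-6-phosphate dehydrogenase of the endoplasmic reticulum, was lower (-0.59 under Pema and -0.38 under CMC, adjusted p = 0.00226 and 0.0311), as was the lactonase Pgls (-0.33 and -0.40, adjusted p = 0.0178 and 0.00591). The isomerase Rpia changed by 0.31 (adjusted p = 0.112) and rose under CMC by 0.60 (adjusted p = 0.00752), and the epimerase Rpe changed by -0.34 (adjusted p = 0.0626) and fell under CMC by 0.36 (adjusted p = 0.0468). With library totals alone none of the H6pd, Pgls and Rpe changes passed, and those of Pgls and Rpe under Pema were 0.03 and 0.01.

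With pemafibrate, compared with CMC, the larger changes included rises of the theta transferase Gstt2, the exporters Abcc3 and Abcc4, the mu transferase Gstm4 and the epoxide hydrolase Ephx1 in both adenoviruses, rises of Cbr1 and Cbr3 in Ad-FAT10 livers, and falls of Osgin1 in Ad-FAT10 and of Gclm in both. In Ad-FAT10 livers 10 of 43 members rose and 2 fell, against 12.9% and 12.5% of all genes, and in Ad-CTRL livers 11 rose and 3 fell, against 16.2% and 14.4%. The total of changed members was thus near that of genes in general (25.4% and 30.6% in the 2 adenoviruses). Ubd itself was higher with Pema in Ad-FAT10 livers (0.96 ± 0.33, adjusted p = 0.0413) and in Ad-CTRL livers (1.30 ± 0.36, adjusted p = 0.00945), and its part in the responses of the members was not tested. The median log2 change was 0.22 in Ad-FAT10 and 0.17 in Ad-CTRL livers, where that of all genes was -0.01 in both. In both adenoviruses, which share no libraries, 7 members rose (Gstt2, Gstm4, Ephx1, Abcc3, Abcc4, Gsr and Taldo1) and 1 fell (Gclm), against 1424 and 1210 of all genes, and 0 moved in opposite directions. In Ad-FAT10 livers 3 members had all Pema values above all CMC values and 0 below (13.1% and 12.3% of all genes), and in Ad-CTRL livers 14 above and 4 below (16.1% and 14.6%). With scaling by library totals alone, members in Ad-CTRL livers divided 5 higher to 3 lower (62.5% higher), against 78.6% with TMM. The 11 that rose there were 7 without Ad-CTRL CMC replicate 2 or without Ad-CTRL Pema replicate 2, and 6 without Ad-CTRL Pema replicate 3.

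From the values above, Gstt2 rose with Pema by 1.56 ± 0.14 in Ad-FAT10 livers (adjusted p = 2.04e-07) and 1.23 ± 0.14 in Ad-CTRL livers (adjusted p = 2.05e-06), with the groups apart in both. Ephx1 rose by 0.58 ± 0.13 in Ad-FAT10 livers (adjusted p = 0.00321) and 1.03 ± 0.13 in Ad-CTRL livers (adjusted p = 1.27e-05), again with the groups apart. Abcc4 rose by 1.47 ± 0.27 in Ad-FAT10 livers (adjusted p = 0.000594), where replicate 1 stayed among the CMC livers, and by 0.79 ± 0.29 in Ad-CTRL livers (adjusted p = 0.0451). That call failed in 12 of the 16 fits without 1 library (highest adjusted p 0.11). Abcc3 had 208, 376, 294 and 307 CPM in Ad-FAT10 Pema and 124, 147, 186 and 201 CPM in Ad-FAT10 CMC livers. The Ad-CTRL livers held 254, 424, 443 and 307 CPM with Pema and 151, 239, 258 and 277 CPM with CMC. The groups were apart in Ad-FAT10 livers, where it rose by 0.85 ± 0.22 (adjusted p = 0.00744), and overlapped in Ad-CTRL livers, where it rose by 0.63 ± 0.22 (adjusted p = 0.0357, lost in 5 of 16 such fits, highest adjusted p 0.126). Gstm4 had 101.5, 201, 113 and 134 CPM in Ad-FAT10 Pema and 54.9, 61.2, 80.7 and 108 CPM in Ad-FAT10 CMC livers. In Ad-CTRL livers it had 115, 102.5, 113 and 102 CPM with Pema and 47.4, 57.1, 57.5 and 69.4 CPM with CMC. The groups overlapped in Ad-FAT10 livers and were apart in Ad-CTRL livers, and Gstm4 rose by 0.85 ± 0.20 there (adjusted p = 0.00484) and by 0.90 ± 0.21 in Ad-CTRL livers (adjusted p = 0.00258).

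In Ad-FAT10 livers Pema also raised both carbonyl reductases, Cbr3 by 2.00 ± 0.49 (adjusted p = 0.00575) and Cbr1 by 1.22 ± 0.27 (adjusted p = 0.00281), with overlapping groups. Leaving out 1 library moved the Cbr3 change between 1.49, without Ad-FAT10 Pema replicate 2, and 2.64, without Ad-FAT10 CMC replicate 4, and it passed in every such fit. In Ad-CTRL livers their changes were 0.32 (adjusted p = 0.842) and 0.23 (adjusted p = 0.582). Osgin1 had 140.5, 186, 191 and 139 CPM in Ad-FAT10 Pema and 289, 469, 324 and 183 CPM in Ad-FAT10 CMC livers. Ad-CTRL livers had 175, 313, 256 and 196 CPM with Pema and 218, 203, 224 and 236 CPM with CMC. The Ad-FAT10 CMC livers were the most spread and held the highest values, and Osgin1 fell with Pema by 0.95 ± 0.22 in Ad-FAT10 livers (adjusted p = 0.00387), while its change in Ad-CTRL livers was 0.09 (adjusted p = 0.799). Akr1b8 rose by 0.53 in Ad-FAT10 livers (adjusted p = 0.0233, lost in 5 of 16 fits without 1 library), where it averaged 3.91 ± 0.591 CPM with Pema and 2.71 ± 0.399 CPM with CMC.

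Gclm fell with Pema by 0.34 ± 0.09 in Ad-FAT10 livers (adjusted p = 0.0103) and by 0.48 ± 0.09 in Ad-CTRL livers (adjusted p = 0.000589), while the change of Gclc, the catalytic subunit, was 0.16 and -0.03. Gsr rose by 0.45 ± 0.16 in Ad-FAT10 livers (adjusted p = 0.0491) and 0.54 ± 0.16 in Ad-CTRL livers (adjusted p = 0.0171). The first of these was lost in 13 of 16 fits without 1 library and was 0.30 (adjusted p = 0.208) without Ad-FAT10 Pema replicate 2. Taldo1, transaldolase, rose by 0.29 (adjusted p = 0.0476, lost in 13 of 16 such fits) in Ad-FAT10 livers and 0.47 (adjusted p = 0.00191) in Ad-CTRL livers. In Ad-CTRL livers alone, Nfe2l2 rose by 0.43 ± 0.11 (adjusted p = 0.00587), Keap1 by 0.29 (adjusted p = 0.025, lost in 4 of 16 fits), Txn1 by 0.43 (adjusted p = 0.0236, lost without Ad-CTRL CMC replicate 4 or Ad-CTRL Pema replicate 2 or 3, highest adjusted p 0.0863) and Mgst1 by 0.42 (adjusted p = 0.0332, lost in 7 of 16 fits). There Gsta3 fell by 0.52 ± 0.16 (adjusted p = 0.0163, or 0.0634 without Ad-CTRL Pema replicate 3) and Gstm6 fell by 0.48 ± 0.13 (adjusted p = 0.0106). Srxn1 in Ad-CTRL livers had all Pema values above all CMC values, with a change of 0.87 that did not pass (adjusted p = 0.0661). The 25 members called in neither adenovirus include Nqo1, Hmox1, Txnrd1, Gclc, Slc7a11, G6pdx and Pgd.

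**Figure D3:**
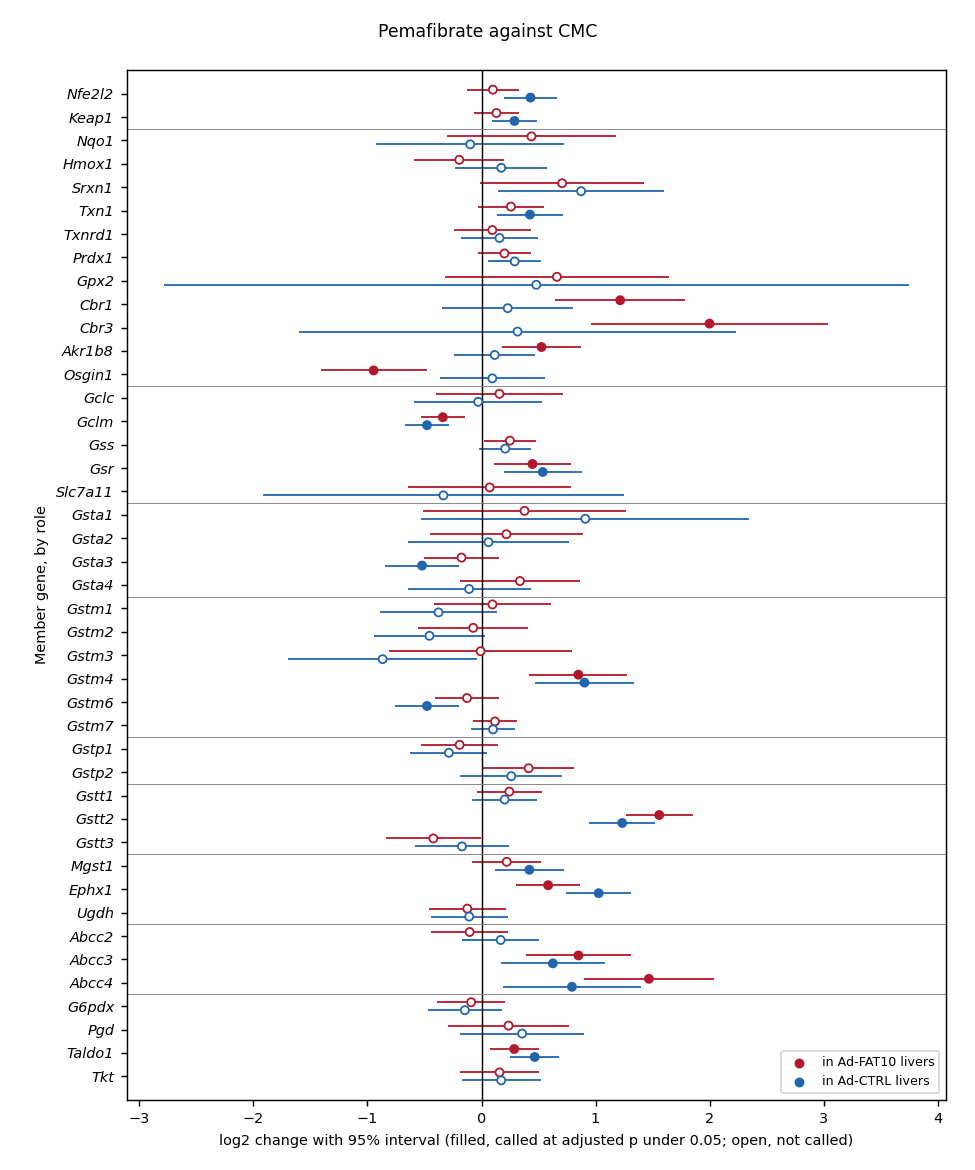
Log2 change of the 43 members with Pema against CMC, in Ad-FAT10 livers (dark red) and in Ad-CTRL livers (blue), with 95% intervals and filled points for an edgeR adjusted p under 0.05. Cbr3 in Ad-FAT10 livers lies farthest to the right, Gstt2 is far to the right in both, and Gpx2 and Cbr3 in Ad-CTRL livers have wide intervals from low counts.

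Whether the response to Pema differed between the adenoviruses was tested by the interaction of the 2 factors, and 0 of 43 members passed in edgeR, against 0.156% of all genes. At an unadjusted p under 0.05 there were 4 members, and the lowest adjusted p among members was 0.225. DESeq2 also called 0 members, with 3 at an unadjusted p under 0.05. The share of all genes at that unadjusted threshold is not given here, so these counts are not shown to exceed it. The 4 in edgeR were Osgin1 (-1.04 ± 0.31, 95% interval -1.69 to -0.39), Cbr1 (0.99, 0.18 to 1.79), Ephx1 (-0.44, -0.84 to -0.05) and Nfe2l2 (-0.33, -0.65 to -0.01). For Cbr3 the interval was -0.53 to 3.90. Members that passed in Ad-FAT10 or Ad-CTRL livers alone are therefore not shown to differ between them. Osgin1 passed when no filter on low counts was applied (adjusted p = 0.0179).

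Within the Ad-FAT10 groups the same livers were high, or low, in most members. In Ad-FAT10 Pema, replicate 2 had the highest value of 31 of 43 members (72.1%, against 16.2% of all genes tested) and replicate 1 the lowest of 26 (60.5%, against 30.6%). In Ad-FAT10 CMC, replicate 4 had the highest value of 33 members (76.7%, against 26.2%) and replicate 1 the lowest of 23 (53.5%, against 30.3%). Of the 18 members higher with Ad-FAT10 in both treatments, Ad-FAT10 Pema replicate 2 was highest in 15 and replicate 1 lowest in 15, and Ad-FAT10 CMC replicate 4 was highest in 16 and replicate 1 lowest in 12. Ad-CTRL groups also had uneven livers. Ad-CTRL Pema replicate 2 was highest in 17 of 43 members (39.5%, against 25.5% of all genes tested) and replicate 4 lowest in 20 (46.5%, against 19.6%). In Ad-CTRL CMC, replicate 4 was highest in 18 (41.9%, against 30.4%) and replicate 1 lowest in 17 (39.5%, against 26%). Ubd in replicates 1 to 4 was 546, 442, 391 and 459.6 CPM in Ad-FAT10 Pema and 110.5, 167, 339 and 330.2 CPM in Ad-FAT10 CMC, so the liver lowest in most members was highest in Ubd in the first group and lowest in the second. The part of Ubd level or vector load in this spread was not tested. Without Ad-FAT10 Pema replicate 2 and Ad-FAT10 CMC replicate 4, a choice made after seeing these values, 20 members rose and 8 fell with Ad-FAT10 under Pema, and 18 rose and 8 fell under CMC. Of the 14893 genes tested in that fit, 2812 rose and 2421 fell under Pema, and 2509 rose and 2628 fell under CMC. The median log2 change of the members was then 0.30 under Pema and 0.28 under CMC, against 0.34 and 0.42 with all libraries.

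**Figure D4:**
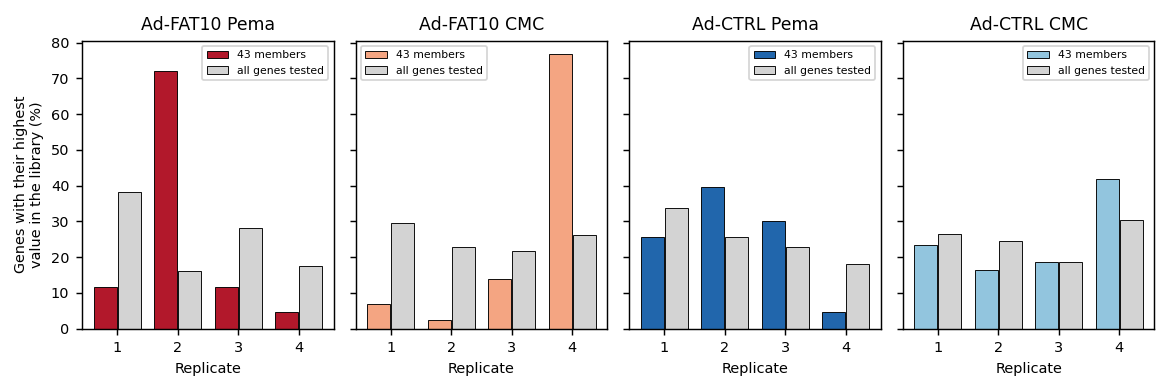
Share of the 43 members (coloured bars) and of all 14770 genes tested (grey bars) whose highest value within a group of 4 libraries falls in each replicate, 1 panel per group, vertical axis in percent from 0. Replicate 2 of Ad-FAT10 Pema and replicate 4 of Ad-FAT10 CMC hold 72.1% and 76.7% of the members.

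Beyond the members, 95 of 100 other genes of glutathione, thioredoxin, iron and NADPH metabolism were tested. With Ad-FAT10, 18 rose and 34 fell under Pema, and 16 rose and 43 fell under CMC, with a median log2 change of -0.23 in both. Of all genes tested, 21.2% were higher and 20.5% lower under Pema, and 22.5% and 20.2% under CMC. With library totals alone 35 rose and 8 fell under Pema and 26 rose and 15 fell under CMC, with medians of 0.14 and 0.07, so the sign of the medians depends on the scaling. Under Pema the largest changes were those of Gstp3, a pi transferase (2.13 ± 0.23, adjusted p = 4.37e-06), the cytochrome Cyp2a5 (1.42), Nmral1 (1.25), the microsomal enzyme Mgst3 (1.22), the exporter Abcc1 (1.17 ± 0.19, adjusted p = 0.000108) and the steroid dehydrogenase Akr1c6 (-0.99). Cyp2a5 had 350.3, 1496, 613 and 544 CPM in Ad-FAT10 Pema and 314, 350.5, 200 and 259 CPM in Ad-CTRL Pema livers. These groups overlapped, and replicate 2 lay far above the rest. Nmral1 had 10.4, 5.45, 6.35 and 5.53 CPM in Ad-FAT10 Pema and 2.44, 3.31, 2.54 and 3.30 CPM in Ad-CTRL Pema livers, without overlap. Under CMC they were those of Gstp3 (1.53 ± 0.22), Abcc1 (1.39 ± 0.19), Akr1c6 (-1.17), Gnmt, the glycine methyltransferase (-1.15 ± 0.13, adjusted p = 3.03e-06), Nmral1 (1.02) and the fatty aldehyde dehydrogenase Aldh3a2 (-0.98). Gstp3 had 35.7 ± 11.0 CPM in Ad-FAT10 Pema and 66.0 ± 19.6 in Ad-FAT10 CMC, against 8.17 ± 0.763 in Ad-CTRL Pema and 23.0 ± 4.63 CPM in Ad-CTRL CMC livers (SD, n = 4 each). Gnmt had 291 ± 40.0 CPM in Ad-FAT10 Pema and 676 ± 79.2 in Ad-FAT10 CMC, against 517 ± 80.2 in Ad-CTRL Pema and 1504 ± 14.3 CPM in Ad-CTRL CMC livers, and was lowered by both factors. With Pema, 24 rose and 14 fell in Ad-FAT10 livers, and 18 rose and 18 fell in Ad-CTRL livers, with medians of 0.12 and 0.06, against 12.9% and 12.5% of all genes in Ad-FAT10 and 16.2% and 14.4% in Ad-CTRL livers. The median in Ad-CTRL livers was -0.02 with library totals alone. The largest changes in Ad-FAT10 livers were those of Aldh3a2 (2.77 ± 0.18, adjusted p = 5.4e-09), the malic enzyme Me1 (1.27), the oxoprolinase Oplah (1.22), Gnmt (-1.22), the cysteine dioxygenase Cdo1 (-1.17) and Mgst3 (1.12). In Ad-CTRL livers they were Aldh3a2 (2.19 ± 0.18), the efflux pump Abcg2 (1.62), Cyp2a5 (-1.61), Gnmt (-1.54), Gstp3 (-1.49) and Me1 (1.39).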

How the data were processed

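RNA-seq of whole liver was made from polyadenylated RNA with a dUTP stranded kit and sequenced on a DNBSEQ instrument, per the labels' protocols. Tools listed in the submitters' processing notes are DESeq2 (2.11.40.6, 1.36.0) and STAR 2.7.6, with the build GRCm39. What remains unknown is the program that counted reads, its strand setting, its treatment of reads shared by gene copies and the annotation release: none of these is given in the sources used here. The deposited values are raw counts per Ensembl gene, whole numbers from the authors, read separately for each of the 16 libraries. Each set of counts was matched to its library by its sample identifier. Of 55416 listed genes, 25938 had no count, 52083 identifiers matched a symbol and 3333, with 0.099% of counts, did not.

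Counts were fitted in R 4.3.3 with edgeR 4.0.16: TMM scaling, filterByExpr by group (14770 genes kept), a quasi-likelihood fit of the 4 groups over all 16 libraries (12 residual degrees of freedom) and 5 contrasts. A gene is called, and is said to rise or fall, where its p, adjusted by Benjamini-Hochberg over the 14770 genes, is under 0.05; all adjusted p-values are edgeR's unless DESeq2 is named. The SE is the log2 change divided by the square root of the F statistic, with intervals at 95%. A floor of 3 counts (0.104 to 0.161 CPM by library) covers counting error only. No 2 libraries of a group agreed within sampling noise (chi-square per gene 14.5 to 119 over 24 pairs), so none was treated as a repeat deposit of another; this does not show that they are separate animals.

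Values per library are given for up to 8 called members with the largest change in each comparison and for Nfe2l2 and Keap1, and for up to 6 other pathway genes with a group mean of at least 1 CPM the change is given. The members and lists were chosen with earlier results of these data known, and 1 hepatocyte marker was not matched. By annotation, G6pdx, Gclm, Gss and Keap1 overlap exons of a gene on the opposite strand, and Ephx1, Gclm, Gstt3, Tkt and Ugdh overlap exons of another gene on their own, so their counts are uncertain where such reads were shared. Alternatives were RLE scaling, library totals alone, DESeq2 1.42.0, no filter on low counts, the 8 libraries compared alone, the replicate number as a block and each library left out in turn.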

Additional observations from a re-analysis of the deposited data

Results flagged for a closer look

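Each of the 172 combinations of a member and a group was searched for a library far from the other 3 by Dixon's test, and 4 passed, where chance alone flags about 1 in 20. Gclm in Ad-FAT10 Pema replicate 2 stood at 221.9 CPM, above 175.2 CPM in the nearest liver of the group. Gstt2 in the same liver stood at 179.4 CPM, above 162.8 CPM in the nearest. Gsta4 in Ad-CTRL CMC replicate 2 stood at 52.9 CPM, above 32.4 CPM in the nearest. Cbr3 in Ad-CTRL CMC replicate 3 stood low at 0.601 CPM, below 0.878 CPM in the nearest.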

How the results depend on the processing

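Every alternative kept the sign of each called change except with library totals alone, where under Pema the Ad-FAT10 changes of Prdx1, Gstm6 and Gstt2 were 0.024, 0.01 and 0.005 and 2 members were lower instead of 8, and Pema raised 5 members in Ad-CTRL livers instead of 11; that scaling moves the median of all genes, and no other cause was tested. With only the 8 libraries compared, Pema lowered 1 member in Ad-FAT10 livers (2 in the full fit) and 5 in Ad-CTRL livers (3 in the full fit), and with no filter on low counts 5 in Ad-CTRL livers and 1 member in the interaction; the cause was not tested. With 1 library left out, members higher with Ad-FAT10 numbered 21 to 21 under Pema and 18 to 23 under CMC, and members lower 4 to 9 and 6 to 7. Members that rose with Pema then numbered 7 to 11 in Ad-FAT10 and 6 to 12 in Ad-CTRL livers, members that fell 2 to 3 and 2 to 4, and the interaction kept 0. Of the called members, 22 of 29 with Ad-FAT10 under Pema, 22 of 27 under CMC, 8 of 12 with Pema in Ad-FAT10 and 7 of 14 in Ad-CTRL livers passed under every alternative. DESeq2 called 29, 28, 12 and 15 members in these 4 comparisons. The replicate numbers did not pair the livers: deviations from the group means of same-numbered livers correlated at -0.172 to 0.172 over 24 pairs, 3 pairs were over 0.1, and 5 of 16 livers correlated best with their own number. With the replicate number as a block, 21 members were higher and 9 lower with Ad-FAT10 under Pema, 22 and 7 under CMC, and Pema raised 8 and lowered 2 in Ad-FAT10 livers and raised 12 and lowered 3 in Ad-CTRL livers, with 0 in the interaction. Depth limits Gpx2 and Slc7a11, which held at most 7 counts in any Ad-CTRL library.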
